A study of Homo sapiens with 8 samples.

Results

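The 6 clonal EA.hy926 lines of this study were 3 without the enhancer E2 (ΔE2 clones 1, 2 and 3) and 3 without the element SE12313-b (ΔSE12313-b clones 1, 2 and 3), and they were compared with one another within each deletion. For each gene, the range was the highest minus the lowest log2(FPKM + 0.1) among the 3 clones of a deletion, and the difference of the 2 control libraries was the reference. FPKM is the number of fragments per kilobase of transcript, scaled to the reads of the library. The transcript with the highest mean was kept for each symbol, and 12028 of 27946 symbols had a mean FPKM of at least 1. Of these genes, 11530 had a transcript of at least 200 bases and 498 a shorter one. Just under the limit lay LOC102724814 with a mean FPKM of 0.99975, and just above it GLRB with 1.00012.

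EA.hy926 is an established line that arose from a fusion of umbilical vein endothelial cells with the lung carcinoma line A549. E2 was studied as an endothelial enhancer, and SE12313-b is another piece of the same super-enhancer that the study had found inactive in reporter assays. Both were removed with Cas9 protein and a pair of guide RNAs, single cells were grown into clones, and the deletions were checked by PCR and Sanger sequencing. After depletion of ribosomal RNA, total RNA was sequenced in 1 library for each of the 6 clones and in 2 libraries of control EA.hy926 cells, which carry neither deletion. The labels do not say whether the control libraries came from separate cultures, so their difference may be technical. The paper describes the control cells of its proliferation assay as transfected with guide RNAs and grown alongside the clones. It does not state whether the sequenced controls were these cells or had been cloned. If they had not been cloned, cloning and deletion cannot be told apart in comparisons with the controls. Each clone was 1 library, so differences between clones and differences between their cultures, days of harvest or library preparations cannot be told apart. The clone numbers used here are the replicate numbers of the labels.

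A clone grown from a single cell carries forward whatever that cell had in gene copies, chromatin state and expression, so that lines with the same engineered deletion need not have the same transcriptome. Hybrid and carcinoma lines are aneuploid, and their cells can differ in the number of copies of whole chromosomes or of parts of them. In endothelial cells, many surface receptors and matrix genes also follow culture density, shear and signalling from the Hippo pathway, whose YAP and TEAD proteins switch on genes such as CTGF and ANKRD1.

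All clones of a deletion were made with the same pair of guides, which are shown because they are what the 3 lines of each deletion share. The motif next to the site that Cas9 needs (PAM) is in capitals.
E2 right: gagttcagactcaactcttgAGG
E2 left: tgtaccacatcagaaggcttGGG
SE12313-b left: aaagaagcttccggttgaatTGG
SE12313-b right: ctattatttctcccgacgtaGGG
On GRCh37, the E2 guides match chr16:77627877-77627896 on the plus strand and chr16:77630393-77630412 on the minus strand. The SE12313-b guides match chr16:77602390-77602409 on the minus strand and chr16:77604893-77604912 on the plus strand. Each guide had 1 perfect site on the chromosome. By the positions of the guides, the cuts would remove 2502 bases for E2 and 2517 for SE12313-b. The deletion sizes that the paper lists are slightly smaller. The nearest gene among those compared, NUDT7, had an FPKM of 5.12 and 4.08 in the control libraries. Its FPKM was 4.5, 6.06 and 5.93 in ΔE2 clones 1 to 3 and 5.15, 4.18 and 5.54 in the ΔSE12313-b clones. These ranges, 0.42 and 0.40 on the log2 scale, did not pass the test.

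Libraries ranged from 12067558 to 19101151 reads in depth, with 7802376 to 13374180 on genes of the table. Markers fixed for 4 cell types were summed. The 8 endothelial markers (PECAM1, CDH5 and others) were above 0 in every library, with a summed FPKM of 208.6 and 209.3 in both controls. It was 197.8, 332.0 and 218.1 in ΔE2 and 214.3, 188.0 and 257.1 in ΔSE12313-b. The sum was highest in ΔE2 clone 2 and ΔSE12313-b clone 3. The 6 epithelial markers, which the carcinoma parent can express, summed to between 811 and 1210 in the clones and between 360.5 and 362.5 in the controls. Nearly all of this sum came from the keratins KRT7, KRT8 and KRT18. CDH1 was 0 in every library and KRT19 at most 0.16. EPCAM went the other way, with 0.554 and 0.243 in the controls and at most 0.215 in the clones. Those of smooth muscle and fibroblasts summed to at most 2.07 in the clones, and the defining leukocyte markers to at most 0.048. In bulk RNA, fewer cells that express a gene and less RNA per cell cannot be told apart.

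Clones of the same deletion differed more than the control libraries did, and by about as much in both deletions. The median range was 0.257 (quartiles 0.159 to 0.422) among ΔE2 clones and 0.266 (0.157 to 0.447) among ΔSE12313-b clones on the log2 scale, and the median difference of the control pair was 0.0861 (0.0379 to 0.172). A range of 3 values exceeds a difference of 2 by construction, and the mean difference over the 3 pairs of clones, which can be set beside the control pair, had a median of 0.172 and of 0.177. Of all genes, 643 (5.35%) had a range of at least 2-fold among ΔE2 clones and 707 (5.88%) among ΔSE12313-b clones, against 205 (1.70%) between the controls. Among transcripts of at least 200 bases these counts were 332, 407 and 39. A 4-fold range was reached by 23 and 35 of them.

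As a multiple of the difference between the controls, the differences between clones were larger in abundant than in low transcripts. In the 436 genes whose mean FPKM reached 100, the median difference was 0.0324 for the control pair, whereas the median of the mean pair difference was 0.125 for ΔE2 and 0.184 for ΔSE12313-b. In the 1112 genes between 1 and 2 FPKM the same values were 0.188, 0.300 and 0.316, and the counting of reads alone gives 0.202 for the control pair. In the low genes the control pair differed about as much as counting alone gives, whereas the clones of abundant genes differed by several times more than the 0.0246 that counting gives there. A chi-square statistic on the reads, which is near 1 per degree of freedom where libraries differ only by counting, averaged 1.2 for the control pair, 15 for the ΔE2 clones and 16.9 for the ΔSE12313-b clones.

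**Figure D1:**
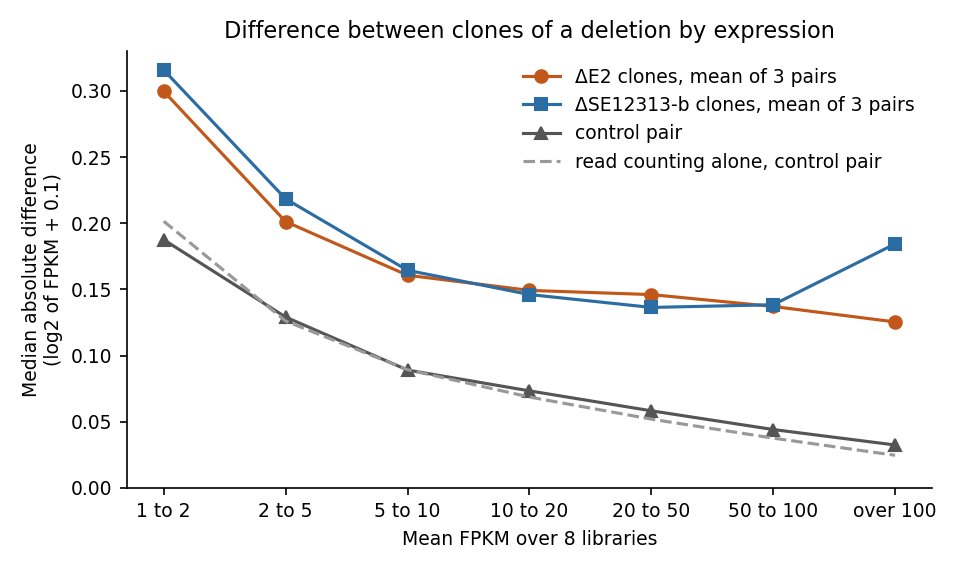
Median absolute difference in log2(FPKM + 0.1) between libraries (y axis) by mean FPKM (x axis), for the control pair, the pairs of ΔE2 clones, the pairs of ΔSE12313-b clones and counting error alone. In genes with an FPKM of at least 100 the control pair lay at 0.0324 and the clones at 0.125 and 0.184.

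Whether the clones differed was tested for each gene with limma, whose residual spread came from the control pair alone, and a gene was called where the Benjamini-Hochberg adjusted p of the F test was under 0.05 and the range at least 2-fold. Of the 12028 genes, 131 (1.09%) were called among ΔE2 clones and 217 (1.8%) among ΔSE12313-b clones. A call says that the clones differed by more than 2 control libraries did, and not by more than independent cultures of 1 clone would. Without ΔE2 clone 2 the first count fell to 2. Without ΔSE12313-b clone 3 the second fell to 21, and without clone 2 to 109. The chi-square test on reads with the same limits called 358 (2.98%) and 420 (3.49%) genes. Of the limma calls, 57 and 88 were transcripts under 200 bases, for which the highest clone had a median of 6 reads, and they are not described further. The 74 and 129 longer transcripts had a median of 1311.5 and 707 reads in the highest clone.

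Both deletions shared part of these genes. Of the limma calls, 66 were common, 50.4% of the ΔE2 calls and 30.4% of the ΔSE12313-b calls, and both lists rest on the same control pair. Of the 66, 33 had transcripts of at least 200 bases, and the other 33 were short transcripts with few reads, some of them copies of each other. Of the chi-square calls, which use no control, 138 were common (38.5% and 32.9%). Over the 11530 genes with longer transcripts, the ranges in both deletions had a Spearman correlation of 0.37, and of 0.32 over the 8050 of them with a mean FPKM of at least 5. Low counts widen both ranges of a gene, and abundance and length are shared by both. These coefficients are across genes, which are not independent replicates.

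In each deletion 1 pair of clones was alike and the remaining clone lay farther off. The median absolute difference was 0.123 between ΔE2 clones 1 and 3, with 43 genes (at least 200 bases) at least 2-fold apart. It was 0.180 between clones 1 and 2 (244 genes) and 0.179 between clones 2 and 3 (197 genes). Among ΔSE12313-b clones, clones 1 and 2 were the closest, with 0.122 and 78 genes. Clone 3 differed from clone 1 by 0.179 (205 genes) and from clone 2 by 0.189 (294 genes). The control pair had 39 such genes.

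A clone was said to stand apart in a called gene where it lay at least 2-fold from the nearer of the other clones and those were within 0.5 of each other on the log2 scale. ΔE2 clone 2 stood apart in 42 genes with longer transcripts, higher in 32 and lower in 10. ΔE2 clone 1 did so in 2 genes and clone 3 in 1. ΔSE12313-b clone 3 stood apart in 40 genes, higher in 29 and lower in 11, clone 2 in 24, lower in 22 of them, and clone 1 in 2. No gene was silent in 1 clone and well expressed in another: 0 had at most 3 reads in a clone and at least 50 in another clone of the deletion.

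The clones farthest from the others, ΔE2 clone 2 and ΔSE12313-b clone 3, differed in the same direction, although they carry different deletions and different numbers. They were singled out after the values had been seen. Over the 8050 genes, the deviations of these clones from the mean of their own deletion had a Pearson correlation of 0.57. ΔE2 clone 2 had coefficients of -0.48 and -0.32 with ΔSE12313-b clones 1 and 2. The 3 deviations of a deletion sum to 0, so the 9 coefficients between the deletions are not independent, and the genes are not replicates. Of these genes, 59 were at least 2-fold higher in ΔE2 clone 2 than the mean of clones 1 and 3, and 54 in ΔSE12313-b clone 3 than the mean of clones 1 and 2. The lists shared 23 genes, 39.0% of the first and 42.6% of the second, and 16 of the 23 were called in both deletions. In the other direction, 14 and 14 genes were at least 2-fold lower and 5 (35.7% of each) were shared, all of them called in both deletions. No gene, 0 of each list, was 2-fold higher in one clone and 2-fold lower in the other. Lists this short leave little room for such genes, so the 0 carries little weight. At a limit of 0.5 on the log2 scale, 155 genes were higher in both clones and 46 lower in both. At that limit 3 genes were higher in ΔE2 clone 2 and lower in ΔSE12313-b clone 3, and 5 the reverse. The sum of the endothelial markers was highest in these same libraries, as given above, and its part in the result was not tested.

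The genes described next were chosen from the 23 that were higher in both clones, so the order of their clones was fixed by that choice. SLC7A7, a subunit of a transporter of cationic amino acids, had an FPKM of 10.5 and 11.7 in the controls, 1.34, 5.62 and 0.785 in ΔE2 clones 1, 2 and 3, and 3.21, 2.79 and 9.45 in the ΔSE12313-b clones. All 6 clones lay below the controls, and the clones that stood apart were nearest to them. The ranges were 2.69 and 1.72 (limma F test, Benjamini-Hochberg adjusted p = 0.0399 and 0.0376). GMFG, which acts on branched actin filaments, showed the same order, with 14.7 and 13.0 in the controls, 1.13, 6.11 and 1.92 in ΔE2 and 3.06, 2.08 and 11.7 in ΔSE12313-b. Its ranges were 2.34 and 2.44 (limma, adjusted p by Benjamini-Hochberg = 0.0434 and 0.0283).

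SCD, the desaturase that makes oleic acid from stearic acid, had an FPKM of 52.7 and 53.5 in the controls, 34.2, 144 and 29.5 in ΔE2 and 70.9, 62.6 and 167 in ΔSE12313-b. The high clone of each deletion exceeded the controls, so the ΔE2 clones lay on both sides of them. The ranges were 2.29 and 1.41 (limma, Benjamini-Hochberg adjusted p = 0.026 and 0.0183). JUP (plakoglobin, a protein of cell junctions) had 28.0 and 29.5 in the controls, 10.2, 29.6 and 10.9 in ΔE2 and 25.6, 22.2 and 51.3 in ΔSE12313-b. In ΔE2, clones 1 and 3 were low and clone 2 was at the level of the controls, and in ΔSE12313-b clone 3 was above them.

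ITGB3, ITGA10, TNFSF15 and PGF were taken from the same 23 genes after their values had been seen. ITGB3, the integrin subunit β3, had 38.5 and 39.4 in the controls, 15.1, 33.7 and 17.8 in ΔE2 and 25.2, 20.6 and 48.7 in ΔSE12313-b. ITGA10, the collagen-binding integrin α10, had 25.1 and 24.8 in the controls and 2.94, 10.6 and 2.99 in ΔE2. In ΔSE12313-b it had 2.48, 3.17 and 8.86, and all clones were below the controls. TNFSF15, a ligand of the tumour necrosis factor family, had 55.4 and 57.3 in the controls, 11.3, 35.3 and 14.97 in ΔE2 and 14.4, 12.9 and 33.5 in ΔSE12313-b. PGF, a ligand of the VEGF family, had 54.4 and 53.7 in the controls, 20.4, 46.3 and 20.6 in ΔE2 and 38.2, 32.5 and 72.3 in ΔSE12313-b. These 4 genes were called in both deletions by limma, with a range between 1.15 and 1.82.

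The 5 genes lower in both clones were SERPINB2, ANKRD1, CTGF, DKK1 and IL1RL1. SERPINB2, the plasminogen activator inhibitor type 2, had an FPKM of 105 and 108 in the controls, 135, 24.7 and 140 in ΔE2 and 73.5, 91.2 and 18.6 in ΔSE12313-b. In each deletion a single clone was far below the others, and in ΔSE12313-b all 3 clones lay below both controls. The ranges were 2.5 and 2.29 (limma, Benjamini-Hochberg adjusted p = 0.026 and 0.0183). CTGF, a matricellular protein, had 17.2 and 16.4 in the controls, 126, 53.7 and 162 in ΔE2 and 58.4, 53.7 and 22.1 in ΔSE12313-b, so that every clone was above the controls. DKK1, a secreted Wnt antagonist, had 17.6 and 16.6 in the controls, 128, 58.2 and 144 in ΔE2 and 91.3, 88.5 and 24.9 in ΔSE12313-b. For both genes ΔE2 clone 2 and ΔSE12313-b clone 3 were the clones nearest to the controls. This did not hold for all genes in which these clones stood apart. ΔE2 clone 2 was nearer to the controls than the mean of its sister clones in 21 of 42 such genes with longer transcripts. For ΔSE12313-b clone 3 the count was 25 of 40.

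ANKRD1, an ankyrin repeat protein of muscle and endothelium, had 22.0 and 22.4 in the controls, 377, 183 and 367 in ΔE2 and 267, 244 and 106 in ΔSE12313-b, so that the controls and the clones did not overlap. IL1RL1, the receptor of interleukin 33, had 2.85 and 2.80 in the controls, 32.6, 17.2 and 59.0 in ΔE2 and 2.68, 2.41 and 0.339 in ΔSE12313-b. Here the ΔE2 clones all exceeded the controls, and ΔSE12313-b clone 3 fell below them. LOX, the enzyme that crosslinks collagen, and ESM1 (endocan), a proteoglycan of endothelial tip cells, were also called in both deletions and lowest in ΔE2 clone 2 and ΔSE12313-b clone 3. LOX had 14.9 and 15.5 in the controls, 19.1, 10.4 and 21.4 in ΔE2 and 12.3, 15.2 and 4.49 in ΔSE12313-b. ESM1 had 58.2 and 62.2 in the controls, 54.6, 23.9 and 55.7 in ΔE2 and 23.3, 25.6 and 12.7 in ΔSE12313-b.

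**Figure D2:**
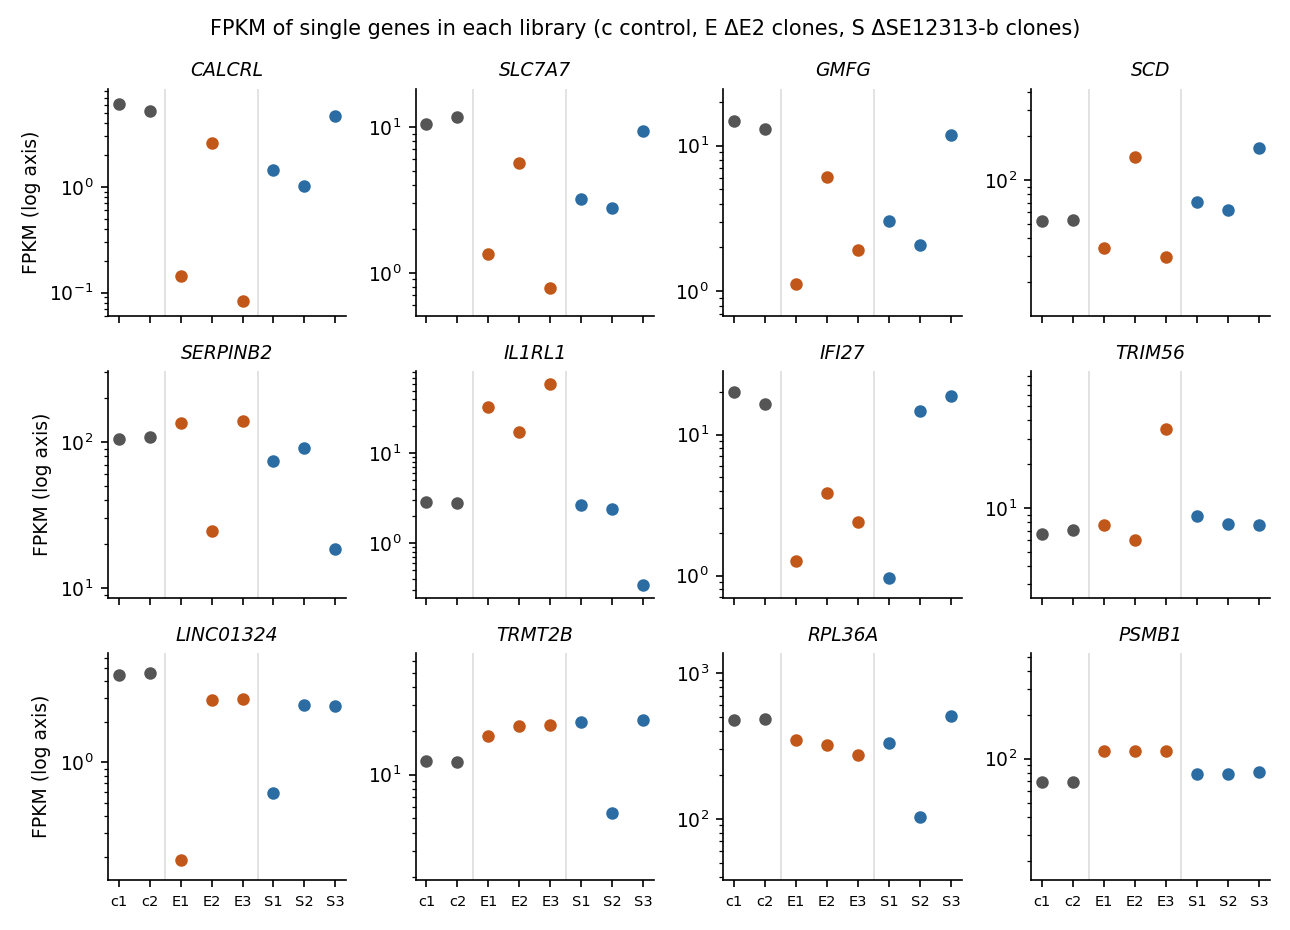
FPKM (log axis) of single genes in each of the 8 libraries, with c for control, E for ΔE2 clones and S for ΔSE12313-b clones; each point is 1 library. SERPINB2 was low in ΔE2 clone 2 (24.7) and ΔSE12313-b clone 3 (18.6), and SCD was high in the same clones (144 and 167).

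The promoters of 4 of these 5 genes are shown because the genes moved together, as the 250 bases before the start of the transcript in RefSeq (GRCh38.p14). No entry was found for CTGF. Capitals mark GGAATG, the core motif bound by TEAD factors, searched together with CATTCC on the other strand.
ANKRD1: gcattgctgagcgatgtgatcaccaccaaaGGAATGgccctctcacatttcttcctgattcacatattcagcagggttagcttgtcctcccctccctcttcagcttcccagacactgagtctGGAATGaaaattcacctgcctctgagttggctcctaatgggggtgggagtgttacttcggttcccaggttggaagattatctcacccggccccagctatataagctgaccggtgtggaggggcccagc
DKK1: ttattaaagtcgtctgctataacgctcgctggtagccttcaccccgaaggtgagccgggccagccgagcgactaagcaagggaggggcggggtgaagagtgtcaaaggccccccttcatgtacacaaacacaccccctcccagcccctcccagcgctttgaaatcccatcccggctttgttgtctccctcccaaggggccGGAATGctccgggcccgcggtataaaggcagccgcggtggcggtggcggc
SERPINB2: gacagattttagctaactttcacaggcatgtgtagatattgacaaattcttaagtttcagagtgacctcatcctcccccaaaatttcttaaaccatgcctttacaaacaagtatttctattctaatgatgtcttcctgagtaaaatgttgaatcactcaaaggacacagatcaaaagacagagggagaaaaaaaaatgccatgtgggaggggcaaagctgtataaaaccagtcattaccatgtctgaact
IL1RL1: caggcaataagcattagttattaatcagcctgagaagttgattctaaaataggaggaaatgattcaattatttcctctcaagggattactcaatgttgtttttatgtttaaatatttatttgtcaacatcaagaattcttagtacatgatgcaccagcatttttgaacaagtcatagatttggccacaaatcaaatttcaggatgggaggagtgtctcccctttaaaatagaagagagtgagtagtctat
The windows are chr10:90921088-90921337 (minus strand) for ANKRD1 and chr10:52314031-52314280 (plus strand) for DKK1. They are chr18:63887455-63887704 (plus strand) for SERPINB2 and chr2:102337007-102337256 (plus strand) for IL1RL1. ANKRD1 held 2 matches and DKK1 held 1, whereas SERPINB2 and IL1RL1 held 0. Of 18 promoters of the genes higher in both clones 4 (22.2%) held the motif, and so did 4175 of 35116 promoters in all (11.9%). A match of 6 letters describes the sequence only.

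Lists of sterol genes and of YAP and TEAD targets were added after the values had been seen, since their members appeared among these genes. The list of sterol and fatty acid synthesis had 25 genes. ΔE2 clone 2 exceeded the mean of the other clones in 24 of them, with a median of 0.79 on the log2 scale, and ΔSE12313-b clone 3 in 22, with a median of 0.42. In ΔE2, INSIG1, which holds back the sterol sensor, had 15.3, 44.8 and 14.5. The sterol enzymes MSMO1 (12.8, 34.8 and 14.7), DHCR7 (12.5, 30.5 and 12.9) and FDFT1 (42.7, 87.3 and 45.5) had the same order, and these 4 genes were called in ΔE2. In ΔSE12313-b only SCD of this list was called, and INSIG1 had 13.5, 12.9 and 24.6. Of 17 targets of YAP and TEAD, 5 were higher in ΔE2 clone 2 (median -0.40) and 6 in ΔSE12313-b clone 3 (median -0.28). Neither list is independent of the values it describes.

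Of 23 endothelial identity genes, 2 were called among ΔE2 clones and 2 among ΔSE12313-b clones (4 and 3 by chi-square), where the shares of all genes were 1.09% and 1.8% by limma and 2.98% and 3.49% by chi-square. Their median range was 0.572 and 0.579, against 0.257 and 0.266 over all genes. PECAM1, the platelet endothelial adhesion molecule, had 5.93 and 6.03 in the controls, 10.4, 20.9 and 10.2 in ΔE2 and 28.2, 22.8 and 27.1 in ΔSE12313-b. It was named after its values had been seen and was called in ΔE2, with ranges of 1.03 and 0.31. S1PR1, the receptor of sphingosine 1-phosphate, had 65.7 and 65.8 in the controls, 27.4, 55.4 and 31.4 in ΔE2 and 23.95, 21.3 and 51.8 in ΔSE12313-b. All clones lay below the controls, and ΔE2 clone 2 and ΔSE12313-b clone 3 were nearest to them (limma, Benjamini-Hochberg adjusted p = 0.0399 and 0.0219). CDH5 (VE-cadherin) was also highest in these clones, with 72.5, 141 and 83.8 in ΔE2 and 74.8, 64.3 and 92.8 in ΔSE12313-b, but its ranges of 0.96 and 0.53 were under 2-fold.

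The widest called range in ΔE2 among transcripts of at least 200 bases was that of CALCRL, the receptor of adrenomedullin (chromosome 2, 188206690 to 188313021, GRCh37, minus strand). Its FPKM was 6.02 and 5.24 in the controls and 0.145, 2.62 and 0.084 in ΔE2 clones 1, 2 and 3, from 17, 275 and 7 reads. In ΔSE12313-b it had 1.44, 1.01 and 4.70. The range was 3.88 in ΔE2 (limma F test, Benjamini-Hochberg adjusted p = 0.0399). That of 2.11 in ΔSE12313-b missed the threshold (limma, Benjamini-Hochberg adjusted p = 0.0565), with clone 3 highest.

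TRIM56, LINC01324 and CAPG had other orders among the ΔE2 clones. TRIM56, a ubiquitin ligase of antiviral defence (chromosome 7, 100728720 to 100735019), had 6.69 and 7.11 in the controls and 7.60, 6.07 and 34.7 in ΔE2. Clone 3 alone was high, and the ΔSE12313-b clones had 8.83, 7.83 and 7.66. The range was 2.49 in ΔE2 (limma, Benjamini-Hochberg adjusted p = 0.0399) and 0.20 in ΔSE12313-b. LINC01324, a long non-coding RNA, had 4.501 and 4.64 in the controls and 0.187, 2.92 and 2.97 in ΔE2, where clone 1 had 3 reads. In ΔSE12313-b it had 0.592, 2.65 and 2.62, again lowest in clone 1. It was called in both deletions, with ranges of 3.42 and 1.99. CAPG, which caps actin filaments, had 3.03 and 3.05 in the controls and 2.32, 6.17 and 6.80 in ΔE2, so that clone 1 was below the controls and the others above. In DHRS3, a reductase of retinal, clone 2 was again the high one, with 0.855, 3.81 and 1.07 in ΔE2 against 3.67 and 3.96 in the controls.

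In ΔSE12313-b the widest called range among transcripts of at least 200 bases was that of IFI27, an interferon-inducible protein (chromosome 14, 94577079 to 94583036, GRCh37, plus strand). It had 20.2 and 16.5 in the controls and 0.968, 14.6 and 18.7 in ΔSE12313-b clones 1, 2 and 3, from 9, 125 and 172 reads. Clone 1 was low and the others were near the controls. IFI27 lies on 14q, whose median over its genes was also lowest in clone 1 (-0.07 against the controls), and the part of the arm in this gene was not tested. The range was 4.14 (limma, Benjamini-Hochberg adjusted p = 0.0202). In ΔE2 it had 1.27, 3.84 and 2.41, and the range of 1.53 did not pass (limma, Benjamini-Hochberg adjusted p = 0.0828).

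CCM2L and RASIP1 were among the next widest. CCM2L, a relative of the cerebral cavernous malformation protein CCM2, had 1.84 and 1.91 in the controls and 0.345, 0.161 and 2.57 in ΔSE12313-b. RASIP1, an effector of small GTPases in vessel lumen formation, had 2.11 and 2.62 in the controls and 0.718, 1.09 and 5.82 in ΔSE12313-b. For both, clones 1 and 2 were below the controls and clone 3 above, and the ranges were 3.36 and 2.85 (limma, Benjamini-Hochberg adjusted p = 0.032 and 0.0372). In ΔE2 they were highest in clone 2, CCM2L with 1.27, 6.58 and 1.54 and RASIP1 with 1.05, 5.22 and 2.75, without passing the test. MMRN1, a protein stored in endothelial cells and platelets, had 1.75 and 1.64 in the controls and 1.88, 1.87 and 8.08 in ΔSE12313-b, where only clone 3 was high.

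Of 40 interferon-stimulated genes, 0 were called by limma among ΔE2 clones (2 by chi-square) and 3 among ΔSE12313-b clones (3 by chi-square), where 1.09% and 1.8% of all genes were called by limma, and their median range was 0.306 and 0.313. Of 18 genes of MHC class I presentation, 0 and 2 were called (1 and 3 by chi-square), with median ranges of 0.348 and 0.498. HLA-B had 78.8 and 80.7 in the controls, 11.97, 18.9 and 13.6 in ΔE2 and 14.5, 14.8 and 37.4 in ΔSE12313-b. HLA-G had 6.83 and 7.03 in the controls, 2.04, 3.13 and 1.59 in ΔE2 and 1.82, 2.33 and 5.54 in ΔSE12313-b. Every clone was below the controls, and ΔSE12313-b clone 3 was the nearest to them. Class I genes are alike in sequence, and how reads were split among them was not stated. GBP2, a guanylate-binding protein, had 3.79 and 3.52 in the controls and 1.96, 1.66 and 5.81 in ΔSE12313-b, above the controls in clone 3 only.

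Of 10 matrix metalloproteinases and their inhibitors, 1 was called in ΔE2 and 3 in ΔSE12313-b (3 and 5 by chi-square), against 1.09% and 1.8% of all genes by limma and 2.98% and 3.49% by chi-square, and their median range was 0.764 and 0.914. TIMP3 had 9.60 and 9.51 in the controls, 39.7, 50.01 and 43.0 in ΔE2, and 20.5, 9.06 and 26.4 in ΔSE12313-b. The ΔE2 clones were alike, whereas ΔSE12313-b clone 2 lay just below the controls and its sister clones above (limma, Benjamini-Hochberg adjusted p = 0.0232). MMP1, the interstitial collagenase, named after its values had been seen, had 1517 and 1548 in the controls, 643, 305 and 639 in ΔE2, and 841, 533 and 414 in ΔSE12313-b. Of 13 NF-κB targets, 1 and 2 were called (6 and 5 by chi-square), with median ranges of 0.891 and 0.800. Of 31 extracellular matrix genes, 2 and 3 were called (5 and 5 by chi-square), with median ranges of 0.378 and 0.370.

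Genes along a stretch of chromosome X had a lower median in ΔSE12313-b clone 2 than in the other libraries. The stretch lay mostly on the long arm but began on the short arm, before the centromere gap at 58582013 to 61682012. Each gene was set against the mean of the other clones of its deletion, relative to the median gene, and a stretch was built from windows of 25 neighbouring genes with a median shift of at least 0.4. The stretch ran from X:54834771 to X:129547630 on GRCh37 and held 153 genes with transcripts of at least 200 bases, and its strongest window (89176940 to 102008468, TGIF2LX to BHLHB9) had a median of -1.50, with 24 of 25 genes below 0. Against the mean of the controls, the median of the 153 genes was 0.01, 0.03 and 0.00 in ΔE2, and 0.00, -0.59 and 0.08 in ΔSE12313-b clones 1, 2 and 3. Clone 2 was the lowest ΔSE12313-b clone in 130 of the 153 genes, and 42 of the 153 were at least 2-fold lower there than the mean of the others. The other 253 genes of the chromosome had medians between 0.05 and 0.06 in the 6 clones.

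Of the 153 genes, 57 (37.3%) were called among ΔSE12313-b clones by chi-square, where 3.49% of all genes were, and 37 by limma, where 1.8% were. The stretch was chosen for its shift in these libraries, so these shares are a description. TRMT2B, a mitochondrial tRNA methyltransferase (X:100264334-100307105), had 12.4 and 12.2 in the controls, 18.4, 21.5 and 21.7 in ΔE2, and 22.9, 5.44 and 23.6 in ΔSE12313-b. Clone 2 fell below the controls, while the other 5 clones were above. CENPI, a kinetochore protein, had 0.765 and 0.859 in the controls, 17.8, 17.3 and 18.98 in ΔE2, and 17.2, 5.07 and 17.6 in ΔSE12313-b, where clone 2 was low but still above the controls. PGK1, the glycolytic phosphoglycerate kinase, had 67.3 and 67.6 in the controls, 131, 119 and 130 in ΔE2, and 168, 75.4 and 142 in ΔSE12313-b.

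Abundant genes of the stretch were affected too. MSN (moesin, which ties the membrane to actin) had 319 and 320 in the controls, 322, 362 and 337 in ΔE2, and 309, 153 and 358 in ΔSE12313-b. RPS4X, a ribosomal protein, had 944 and 945 in the controls, 700.1, 757 and 721 in ΔE2, and 751, 364 and 883 in ΔSE12313-b. RPL36A, another ribosomal protein, had 474 and 485 in the controls, 347, 318 and 276 in ΔE2, and 329, 103 and 504 in ΔSE12313-b. These 3 genes had ranges of 1.22, 1.28 and 2.29 in ΔSE12313-b (limma, Benjamini-Hochberg adjusted p = 0.0183, 0.0183 and 0.0174). RPL36A overlaps a read-through transcript with HNRNPH2, and ribosomal protein genes have near-identical copies, so its reads may be shared. SYTL4, CSTF2, XKRX and TRMT2B lie next to each other among the genes compared and were all at least 2-fold lower in clone 2, as were the neighbours ZC4H2, LAS1L and MSN. XKRX and ZC4H2 were called by chi-square but not by limma.

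Of 40 chromosome arms with at least 50 genes, 4 shifts of 0.2 or more against the other clones of the deletion were found in 240 arm and clone pairs, all of them in ΔSE12313-b. Xq was shifted by -0.39 in clone 2 (243 genes, 78.6% on that side) and by 0.25 in clone 3 (71.2%). Each clone was set against its sister clones, so a low clone raises the others and the 4 shifts are not independent. Against the controls, Xq was at 0.08, -0.21 and 0.17 in clones 1, 2 and 3. The arm 14q was shifted by -0.26 in clone 1 (403 genes, 94.0%) and by 0.26 in clone 3 (85.1%). Against the controls, the median over the 388 genes of 14q with transcripts of at least 200 bases was -0.07, 0.17 and 0.30 in ΔSE12313-b clones 1, 2 and 3, and clone 1 was the lowest in 309 of them. No arm, 0 of 40, was shifted in a ΔE2 clone by this measure. Shorter stretches on chromosome 6 were lower in ΔE2 clone 2, at 25962917 to 26252303 and at 26440700 to 28956344. Their strongest windows, TRIM38 to HIST1H3F and HMGN4 to HIST1H2BO, had medians of -0.40 and -0.43, with 22 and 21 of 25 genes below 0. Both windows end in a clustered histone gene, and the part of the histone genes in these medians was not tested. Another stretch lay on 5q31, where the clustered protocadherins, adhesion proteins whose genes share their last exons, had medians of -1.39, -0.78 and -1.47 in ΔE2 and -1.59, -0.99 and -0.45 in ΔSE12313-b against the controls. Of 22 members of that list, 0 were called in either deletion by limma, and 0 and 21 by chi-square, with median ranges of 0.67 and 1.13. They share constant exons and therefore reads, so they count as about 1 measurement, and the other 23 genes of the stretch had medians between -0.15 and 0.08.

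Some arms were shifted alike in all clones of a deletion. Against the mean of the controls, 30 arm and clone pairs were shifted by 0.2 or more. In ΔE2 the arm 16p was lower in all clones (-0.38, -0.50 and -0.44), as was 12p (-0.24, -0.22 and -0.28). In ΔSE12313-b, 10p (0.50, 0.48 and 0.47) and 10q (0.47, 0.45 and 0.41) were higher in all clones, whereas 6q (-0.48, -0.54 and -0.57), 11q (-0.30, -0.27 and -0.28), 16q (-0.27, -0.30 and -0.33) and 4q (-0.22, -0.20 and -0.35) were lower. These are medians of RNA levels, and no copy number was measured.

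Of the lists of 46 S phase and 55 G2/M genes, 0 were called in either deletion by limma or by chi-square, where 1.09% and 1.8% of all genes were called by limma and 2.98% and 3.49% by chi-square. The lists had median ranges of 0.307 (ΔE2) and 0.236 (ΔSE12313-b) for S phase genes, and of 0.332 and 0.267 for the G2/M genes. Those of all genes were 0.257 and 0.266. For S phase genes, the median deviation from the mean of the deletion was 0.04, -0.17 and 0.14 in ΔE2 clones 1, 2 and 3. It was 0.09, -0.02 and -0.06 in the ΔSE12313-b clones. For G2/M genes it was 0.03, -0.17 and 0.15 in ΔE2, and 0.09, 0.04 and -0.14 in ΔSE12313-b. Both lists were therefore lowest in ΔE2 clone 2 and ΔSE12313-b clone 3. FOXM1, the transcription factor of G2/M genes, had 1.41 and 1.62 in the controls, 41.1, 34.6 and 42.0 in ΔE2 and 60.4, 55.0 and 52.3 in ΔSE12313-b. The clones of a deletion were close together and far above the controls, and the ranges of 0.28 and 0.21 did not pass. RRM2, a subunit of ribonucleotide reductase, had 1.07 and 0.611 in the controls, 89.6, 63.4 and 98.3 in ΔE2 and 77.1, 76.3 and 62.1 in ΔSE12313-b. Of 34 genes that the study names, 2 and 2 were called (4 and 4 by chi-square), with median ranges of 0.431 and 0.350.

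Of 31 proteasome genes, 0 were called in either deletion by limma or by chi-square. Of all genes, 1.09% and 1.8% were called by limma and 2.98% and 3.49% by chi-square, so lists of this size would hold few calls. The proteasome genes had a median range of 0.135 and 0.126. Of 79 ribosomal protein genes, 0 and 2 were called, with a median range of 0.106 among ΔE2 clones and 0.304 among ΔSE12313-b clones, where that of all genes was 0.257 and 0.266. RPS4X and RPL36A, both called in ΔSE12313-b, lie in the stretch on chromosome X described above. RPL4 had 849.6, 850.1 and 851.0 in the ΔE2 clones. PSMB1, a subunit of the proteasome core, had 112.9, 112.9 and 112.7 there, and SEC31A, a coat protein of vesicles, had 35.4, 35.4 and 35.3 in the ΔSE12313-b clones. They were chosen for the smallest ranges among genes whose mean FPKM was 20 or more. Of 15 HOX genes, 0 were called in either deletion by limma or chi-square, with median ranges of 0.193 and 0.353.

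The counts of the remaining lists stand against the same shares of all genes, 1.09% for ΔE2 and 1.8% for ΔSE12313-b. For the integrated stress response 2 and 1 of 32 were called among ΔE2 and ΔSE12313-b clones (median ranges 0.288 and 0.373), for hypoxia 1 and 2 of 23 (0.375 and 0.310), for p53 targets 1 and 0 of 21 (0.294 and 0.236), and for NRF2 targets 0 and 1 of 18 (0.352 and 0.265). STC2, a secreted glycoprotein induced by stress, had 17.4 and 15.7 in the controls and 16.7, 6.58 and 18.5 in ΔE2, with clone 2 low. Its relative STC1 had 295 and 301 in the controls, 5.004, 7.74 and 5.08 in ΔE2 and 8.34, 9.84 and 22.6 in ΔSE12313-b, with clone 3 the highest of its deletion. Immediate early genes gave 2 and 1 of 18 (0.449 and 0.446), imprinted genes 0 and 1 of 22 (0.307 and 0.297), and epithelial genes 1 and 1 of 9 (0.424 and 0.321). MEG3, the imprinted non-coding RNA of chromosome 14, had 75.8 and 79.0 in the controls, 10.7, 11.3 and 10.5 in ΔE2 and 9.61, 16.1 and 7.93 in ΔSE12313-b. Smooth muscle and fibroblast genes gave 1 and 0 of 6 (0.716 and 0.249). By limma, 0 calls in either deletion were found among 13 cancer-testis genes (0.232 and 0.273), 4 metallothioneins (0.643 and 0.278) and 1 leukocyte gene, and chi-square called 1 and 0 of the cancer-testis genes and 0 of the others.

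The range among clones was set beside the change from the controls. Among transcripts of at least 200 bases, 2131 had a mean of the ΔE2 clones at least 2-fold from the mean of the controls, and the range among the clones exceeded that change in 41. For ΔSE12313-b the counts were 2455 and 55. Since only 332 and 407 longer transcripts had a 2-fold range at all, a smaller range was fixed by the choice of changed genes for most of them. TXNIP, an inhibitor of thioredoxin, named after its values had been seen, had 317 and 319 in the controls, 1.88, 4.13 and 2.68 in ΔE2 and 1.28, 1.74 and 6.21 in ΔSE12313-b. Its range of 2.19 in ΔSE12313-b was called, yet all 6 clones were far below the controls. In contrast, 27 of the 74 called genes with longer transcripts in ΔE2 and 54 of the 129 in ΔSE12313-b had clones on both sides of the controls, as SCD, CAPG, CCM2L and RASIP1 did.

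Deviations of a clone from the other clones went along with transcript length and G+C content to different degrees. Over 7774 genes (96.6% with a G+C content), the Spearman correlation with length was -0.17, 0.086 and 0.062 in ΔE2 clones 1, 2 and 3 and -0.013, 0.30 and -0.22 in the ΔSE12313-b clones. With G+C content it was 0.21, -0.061 and -0.15 in ΔE2 and 0.057, -0.25 and 0.13 in ΔSE12313-b. These values are across genes. The coefficients with length were farthest from 0 in ΔSE12313-b clones 2 and 3, which stood apart in 24 and 40 genes. However, ΔE2 clone 2 stood apart in 42 genes with a coefficient of 0.086, and ΔE2 clone 1 in 2 genes with -0.17. The part of length and G+C content in the calls was not tested.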

How the data were processed

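RNA of 8 EA.hy926 libraries (2 control, 3 ΔE2 and 3 ΔSE12313-b) was analysed. The authors trimmed reads with Trim Galore 0.4.4, mapped them to GRCh37 with STAR 2.5.4b and deposited 1 table of FPKM for each RefSeq transcript. The tool, RefSeq release and handling of strands behind that table are not given in the sources used here. Whole reads were recovered from the FPKM steps (99.98% to 99.99% of values within 0.1 read) and used for depth, the chi-square test and an alternative only. The chi-square test covers counting error only.

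For each symbol the transcript with the highest mean was kept, and a mean FPKM of 1 or more was required. limma 3.58.1 (R 4.3.3, trend, two-sided) was run on log2(FPKM + 0.1) with 1 coefficient for the controls and 1 for each clone, so that 1 residual degree of freedom came from the control pair. P values of the moderated F test among the clones of a deletion were adjusted by Benjamini-Hochberg over 12028 genes, and a call needed an adjusted p under 0.05 and a 2-fold range. A fold change on this scale understates the change of low genes. These steps were first tested on simulated data. The variance of the clones was compared between deletions by an F test for each gene. The controls may be technical replicates, so p-values measure only the spread between these samples.

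Genes were named by rule: per deletion the 12 calls of largest range with at least 20 reads in the highest clone, the 3 highest and 3 lowest calls of each clone standing apart, the 5 smallest ranges, the 5 largest shared calls, 2 genes of each list, the genes the study names and runs of neighbours. Transcripts under 200 bases are counted but not named. The members and lists were chosen with earlier results of these data known. Alternatives were other pseudocounts, filters, normalizations, error terms, thresholds, transcripts, tests and each library left out. Restricting the fit to transcripts of at least 200 bases and limma voom on the recovered reads were added after the data had been seen.

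Clone numbers are those of the labels and do not pair clones: over 8050 genes the deviations of same-numbered clones from their group means had correlations of 0.33, -0.32 and -0.56, and a clone number names a separate line in each deletion.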

Additional observations from a re-analysis of the deposited data

Results flagged for a closer look

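The spread among clones was compared between the deletions gene by gene, and 16 of 12028 genes differed at a Benjamini-Hochberg adjusted p under 0.05 (F test of the 2 variances, two-sided). The test compared the deletions directly, but its outcome was fixed where one variance was 0. Any spread in the other deletion, however small, then gives a p of 0 in this F test. In 13 of the 16 genes the range in one deletion was 0, and in the other 3 (MAP3K13, ZMAT5 and PPT2-EGFL8) it was at most 0.00173 on the log2 scale. MAP3K13 had an FPKM of 5.429, 5.429 and 5.427 in the ΔE2 clones and of 9.00, 8.29 and 9.15 in the ΔSE12313-b clones. Of the 16 genes, 7 had transcripts under 200 bases. At an unadjusted p under 0.05 there were 631 genes (5.25%), 286 with the larger variance in ΔE2 and 345 in ΔSE12313-b. With variances moderated over all genes, 0 genes passed the adjustment and 218 an unadjusted p under 0.05. The larger range was in ΔE2 for 6022 genes and in ΔSE12313-b for 6006.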

How the results depend on the processing

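The main counts were 131 (ΔE2), 217 (ΔSE12313-b), 66 (both deletions) and 173 (1 clone standing apart). With no filter on low values, or at an adjusted p under 0.01, they were 0, 0, 0 and 0, while 2799 and 3021 genes had an unadjusted p under 0.05 by limma and 358 and 420 were called by chi-square on reads. With quantile normalization they were 9, 62, 8 and 37, without the trend of variance on expression 22, 0, 0 and 16 (more calls in ΔE2 than in ΔSE12313-b, the opposite of the main order), and with the error taken from the other deletion and the control pair 0, 13, 0 and 10. The chi-square test gave 358, 420, 138 and 283, all transcripts in place of 1 per symbol 754, 774, 299 and 741, and limma voom on the recovered reads 416, 508, 169 and 372. A pseudocount of 0.01 gave 68 for ΔE2 and 34 for both, robust empirical Bayes 222 and 111, a 1.5-fold range 202 for ΔE2, 387 for ΔSE12313-b and 120 for both, and transcripts of at least 200 bases 233 for ΔE2. Leaving out each clone in turn gave 2 to 153 (ΔE2), 21 to 261 (ΔSE12313-b) and 1 to 59 (both). The cause of these moves was not tested, except that fewer clones give smaller ranges by construction.

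The median ranges of 0.257 and 0.266 became 0.314 and 0.317 with no filter, 0.172 and 0.177 as means of pair differences, and 0.221 and 0.207 with the replicate block, which removes what same-numbered clones share. Without 1 clone they were 0.123 to 0.180 and 0.122 to 0.189. No paired analysis was possible because no residual degree of freedom remained for the F test with the clone number as a block. The 16 genes with unequal variance became 0 with moderated variances and 0 with each library centred. The 4 arm shifts became 1688 of 65862 windows of 25 genes, and 30 against the controls. Of 125 calls of named genes, 124 passed with each library centred, 117 with a pseudocount of 1, 104 by chi-square, 36 with quantile normalization and 10 without the trend, and 0 at an adjusted p under 0.01.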
